A study of Mus musculus with 15 samples.

Results

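The genes described here are the mouse hepcidins and the best known genes of iron entry and exit, namely Hamp, Hamp2, Slc40a1, Tfrc, Trf, Slc11a2 and Cybrd1. These 7 of 44788 gene symbols were chosen on their FPKM values at the 15 time points, so their levels are given below as a description, with no test. FPKM is a level of sequenced fragments scaled to transcript length and library size, and the files' entries were added up for each symbol. Each of the 7 symbols had 1 entry, and all 7 passed the filter on low values, an FPKM of 1 or above in any library.

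RNA-Seq was performed on whole stomachs of C57BL/6 mice, with a single transcriptome at each time point and no genetic or drug treatment in any group. The fetal group holds each day from E12.5 to E18.5 (n = 7 time points), the suckling group holds D1, D3, D5, W1 and W2 after birth (n = 5), and the weaned group holds W3, itself about the age of weaning, W6 and W8 (n = 3). No time point has a replicate, so the spread within a group is between ages, and for the study at large stomachs are stated to have been pooled from E12.5 to E17.5 and taken singly after E18.5, so pooling and age cannot be told apart. Stomachs up to W2 are stated to have been taken without regard to sex and later ones from males. Sex and the weaned stage therefore cannot be told apart either. Because whole organs were used, fewer cells of a type and less RNA per cell cannot be told apart.

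Hepcidin is a small peptide hormone, made mainly by hepatocytes, that binds the iron exporter ferroportin (Slc40a1) and causes its internalization and degradation. Cells take up transferrin-bound iron through the transferrin receptor (Tfrc), whereas the duodenal enterocyte reduces dietary iron with Cybrd1 and imports it with the divalent metal transporter Slc11a2. In the stomach, hepcidin is known from parietal cells, where it has been linked to acid secretion. Mice carry a pair of hepcidin genes, and it is Hamp whose peptide is established as the iron regulating hormone, while Hamp2 has not shown the same activity.

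Libraries differed in makeup in ways that touch several of these genes. The number of fragments behind each library, estimated from the confidence bounds in the files, lay between 10.6 (E16.5) and 16.98 (W6) in units of 1e6. The 10 highest genes of a library took between 11.2% (E14.5) and 53.2% (W6) of its summed FPKM, and the median-ratio factor, which compares each library with the geometric mean of all, ran from 1.27 (E14.5) to 0.570 (W6). All 8 parietal markers and all 6 chief cell markers reached an FPKM of 1, and the summed parietal markers lay between 16.2 and 688 in fetal, 1020 and 3703 in suckling and 5441 and 9052 in weaned stomachs. D1 stood apart, because 9 of the 12 hepatocyte markers had their highest level there. Albumin (Alb) was at an FPKM of 460.5 at D1 against 65.4 at W3, the next highest, and fibrinogen beta (Fgb) was 15.2 times higher at D1 than at any other time point. The suckling minus fetal differences of Trf, Hamp, Hpx and Hmox1 are therefore given with and without it. Comparisons of profiles over the time points include D1.

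The hepcidin genes lie next to each other on chromosome 7 (build GRCm38), Hamp2 at chr7:30922372-30924181 and Hamp at chr7:30942368-30944017, 18186 bases apart and on the same strand. Their transcripts (GENCODE M21) are 94.6% identical over 410 aligned bases, with a longest identical run of 87 bases, so reads from one can be assigned to the other. The ends of the coding sequences, 25 codons for the mature peptide and the stop codon, are shown first, with the differing bases in capitals. Most differences between the aligned coding sequences lie there. Of all differing bases between the aligned coding sequences, 14 lie in this stretch and 2 before it. The Hamp2 coding sequence is also longer before this stretch (255 bases in all, against 252 in Hamp).
Hamp, chr7:30942477-30942554, minus strand: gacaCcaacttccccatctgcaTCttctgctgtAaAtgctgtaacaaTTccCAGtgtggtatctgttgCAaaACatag
Hamp2, chr7:30922508-30922585, minus strand: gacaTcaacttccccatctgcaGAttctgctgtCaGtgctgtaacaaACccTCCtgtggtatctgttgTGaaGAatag

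The 250 bases before each start site are shown because the hepcidin genes differed so widely in level, and because hepcidin is a known target of bone morphogenetic protein (BMP) and STAT3 signalling. The promoters (RefSeq, GRCm38.p6) matched both symbols and were identical at 227 of 247 aligned bases (91.9%). Capitals mark GGCGCC, the core of the BMP-responsive element, in Hamp with the aligned bases in Hamp2, and TTCNNNGAA, the STAT-type motif, in both.
Hamp, chr7:30944030-30944279, minus strand: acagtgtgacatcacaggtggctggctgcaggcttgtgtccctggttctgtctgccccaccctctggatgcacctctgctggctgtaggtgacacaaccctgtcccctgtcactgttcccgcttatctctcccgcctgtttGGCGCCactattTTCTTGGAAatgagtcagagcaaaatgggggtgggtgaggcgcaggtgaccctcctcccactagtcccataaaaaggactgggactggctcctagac
Hamp2, chr7:30924182-30924431, minus strand: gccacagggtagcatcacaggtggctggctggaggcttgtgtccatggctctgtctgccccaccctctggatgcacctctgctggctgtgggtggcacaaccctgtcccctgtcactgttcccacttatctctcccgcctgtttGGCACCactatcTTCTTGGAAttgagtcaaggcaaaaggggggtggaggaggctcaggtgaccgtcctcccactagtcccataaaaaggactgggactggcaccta
The Hamp promoter held GGCGCC once, beginning at position -109 from the start, and the Hamp2 promoter did not hold it. The aligned bases in Hamp2 are GGCACC, which is the substitution G4A counted from 1 at the first base of the motif. TTCNNNGAA occurred once in each, beginning at position -97 in Hamp and -94 in Hamp2. Searched on both strands of 27025 promoters over the same 250 bases, GGCGCC was present in 9.54% and TTCNNNGAA in 7.18%, and the motifs do not overlap each other in either gene. Neither the E-box CACGTG (6.05% of promoters) nor TATAAA (13%) was found in these windows. A match of letters is a description of the sequence and not a measure of binding.

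Hamp2 was the hepcidin gene of the weaned stomach. Its FPKM was 124.8 at W3, 477.0 at W6 and 371.1 at W8, with deposited bounds of 112.6 to 136.9, 456.0 to 498.1 and 352.6 to 389.6. These rested on an estimated 421, 2057 and 1609 fragments. All 3 weaned values stood above every earlier one, and the bounds of neighbouring levels were apart from W6 down to W1.

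Before weaning, Hamp2 was low. Its FPKM was 1.71 at D1, 4.08 at D3, 2.29 at D5, 5.09 at W1 and 13.53 at W2, and the bounds of the values from D1 to W1 overlapped between neighbours in the order of levels. In fetal stomachs the lowest, median and highest FPKM were 0, 0.413 and 0.828, which is 0 to 3 estimated fragments per library. The level at W3 was 9.22 times that at W2, and the mean of the weaned group was 60.8 times that of the suckling group. On the log2(FPKM + 1) scale, which understates changes of low genes, the difference between weaned and suckling was 5.75 (SD 1.02 and 0.94, n = 3 and 5), and 6.33 after median-ratio scaling.

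Hamp, which encodes the hormone itself, was low throughout. Its FPKM was 5.55 at D1, 4.98 at D3 and 1.66 at D5, and it was listed at 0 at W1 and W2. In the weaned group it was 3.06 at W3, 1.36 at W6 and 0.880 at W8, and in the fetal group the lowest, median and highest were 0, 0 and 2.02 (E18.5). No library held more than an estimated 14.7 Hamp fragments. For all 14 pairs of neighbours in the order of levels the bounds overlapped, so no step in that order stood clear of them. At W8 the FPKM of Hamp2 was 422 times that of Hamp, at an estimated 3 Hamp fragments, whereas at D1 it was 0.308 times that of Hamp. Since reads can be shared between these near-identical copies, the few Hamp fragments of the weaned libraries are uncertain, and the part of shared reads was not tested. The plot of both hepcidin genes on a log2 scale shows Hamp above Hamp2 at E18.5, D1 and D3, with overlapping bounds at D1 and D3, and below it at the other time points.

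**Figure D1:**
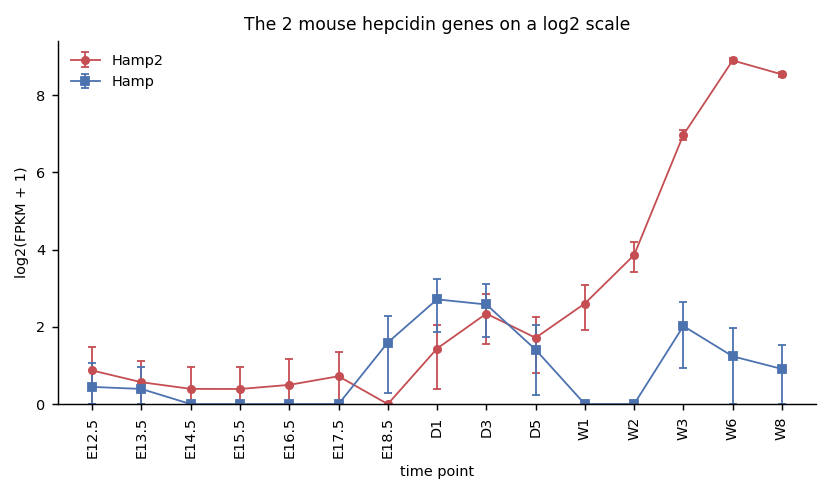
Level of Hamp2 (circles) and Hamp (squares) as log2(FPKM + 1) at each of the 15 time points, with bars for the deposited confidence bounds (within 1 library, with no spread between animals). Hamp2 stays under an FPKM of 1 before birth and reaches 477.0 at W6, while Hamp has its highest value, 5.55, at D1.

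The genes whose profiles over the 15 time points were most like that of Hamp2, among 9851 genes reaching an FPKM of 10, were Chia1 (r = 0.98), Ces2a (0.98), Ces1f (0.97), Brms1 (0.97) and Dgat1 (0.97), with Pearson's r on log2(FPKM + 1). Chia1 encodes an acidic chitinase of chief cells and was at an FPKM of 9319 at W8. The points share libraries and their depth, so r is a description over n = 15 time points. Ranked by Spearman's rho instead, 1 of the 5 was again among the first 5. The summed chief cell markers lay between 20947 and 34474 in suckling and between 170743 and 352686 in weaned stomachs. Their list was drawn up with earlier results of these data known and includes Chia1. The surface mucous markers summed to between 10005 and 60564 in suckling and between 122357 and 193606 in weaned stomachs. Summed parietal markers, given above, were also highest in weaned stomachs. The part of cell makeup in the level of Hamp2 was not tested. For Hamp, the most alike included Fgl1 (r = 0.78), Oasl2 (0.78), Ahsg (0.78) and Sycn (0.76). Fgl1 and Ahsg encode secreted hepatocyte proteins.

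**Figure D2:**
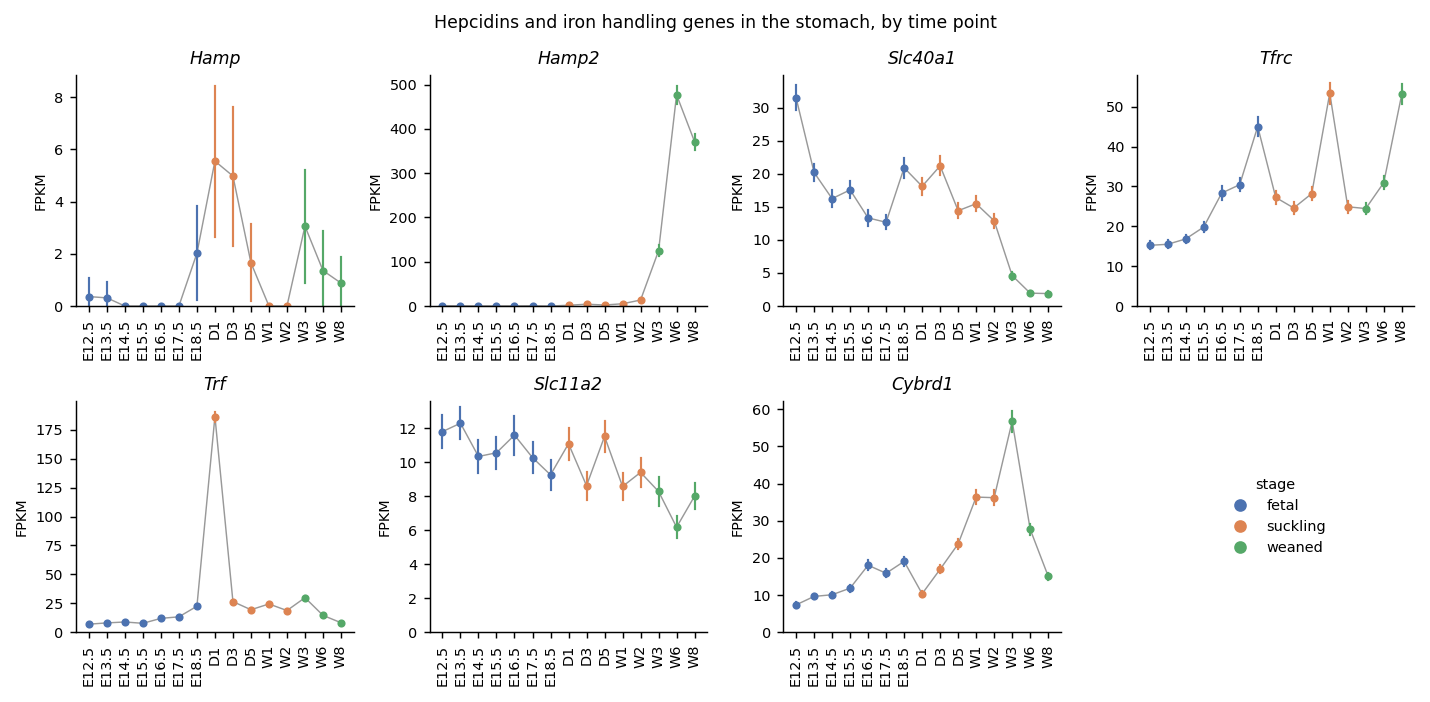
FPKM of each of the 7 genes (y axis, one scale per panel, starting at 0) at each time point (x axis), coloured by stage, with vertical bars for the deposited confidence bounds. Hamp2 is high in the 3 weaned libraries, Slc40a1 is low in them, Trf peaks at D1 with 186.4, and Slc11a2 stays between 6.18 and 12.3.

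Slc40a1 (chr1:45908070-45926535), the only known cellular iron exporter of mammals and the target of hepcidin, was lowest in the weaned stomachs. Its FPKM in fetal stomachs was 12.7 at the lowest (E17.5), 17.55 at the median and 31.5 at the highest (E12.5). After birth it was 18.1 at D1, 21.2 at D3, 14.4 at D5, 15.46 at W1 and 12.9 at W2. It was 4.60 at W3, 1.95 at W6 and 1.88 at W8, below every earlier value.

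The bounds of Slc40a1 were apart at 3 of 14 steps in the order of levels, namely between E12.5 and D3, between E17.5 and W3, and between W3 and W6. The weaned minus suckling difference was -2.24 in log2(FPKM + 1) (SD 0.55 and 0.27, n = 3 and 5), and the weaned mean was 0.171 times the suckling mean. With median-ratio scaling, which allows for the share taken by the highest genes, the difference was -1.81 and the weaned values still lay below all suckling values. Between suckling and fetal stomachs the groups overlapped, and the small difference changed sign with the scaling (-0.16 by FPKM, 0.11 after median-ratio scaling). The 10 macrophage markers, a cell type known for ferroportin, summed to an FPKM of 71.1 to 148 in fetal, 173 to 218 in suckling and 84.2 to 214 in weaned stomachs. Of these, 9 reached an FPKM of 1, and their part in the level of Slc40a1 was not tested.

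Most alike to Slc40a1 were Olfml1 (r = 0.97), Igfbp3 (0.96), St6galnac6 (0.96), Traf5 (0.96) and Tspan4 (0.96). Igfbp3 encodes a carrier of insulin-like growth factors. With Spearman's rho, 1 of these 5 remained among the first 5, and with median-ratio scaling 3 did.

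Translation of Slc40a1 and stability of Tfrc mRNA are under the control of iron regulatory proteins, which bind hairpins known as iron-responsive elements. These sites are shown because, within the set, Slc40a1 and Tfrc alone held the strict form searched for here. The search asked for C, 5 bases, the loop CAGTG followed by A, C or T, and 5 bases able to pair with the first 5 (G with T allowed), on the transcript strand of GENCODE M21 genes. Capitals mark the loop.
Slc40a1, 5′ UTR, chr1:45925471-45925487, minus strand: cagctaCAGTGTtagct
Tfrc, 3′ UTR, chr16:32631225-32631241, plus strand: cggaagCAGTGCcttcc
Tfrc, 3′ UTR, chr16:32631604-32631620, plus strand: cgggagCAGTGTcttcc
Tfrc, 3′ UTR, chr16:32631669-32631685, plus strand: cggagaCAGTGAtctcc
Tfrc, 3′ UTR, chr16:32631716-32631732, plus strand: cgggaaCAGTGTttccc
Fth1, 5′ UTR, chr19:9982738-9982754, plus strand: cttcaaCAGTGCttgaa
Ftl1, 5′ UTR, chr7:45459785-45459801, minus strand: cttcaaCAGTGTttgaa
Tfrc held 4 such matches after its coding sequence, and Slc40a1 held 1 before it, as did the ferritin chains Fth1 and Ftl1. Alas2 also held 1 before its coding sequence, which is not shown. A match in a UTR was found in 123 of 21877 protein-coding genes (0.562%). Hamp, Hamp2, Trf, Slc11a2 and Cybrd1 held none in this form, which says only that these letters are not there. An element with a bulge or a mismatch in its stem would be missed, so Slc11a2 and the others are not shown to lack one.

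Tfrc (chr16:32608896-32632794), the receptor that brings transferrin-bound iron into the cell, was expressed at every time point. In fetal stomachs its FPKM was 15.2 at the lowest (E12.5), 19.8 at the median and 45.0 at the highest (E18.5). After birth it was 27.2 at D1, 24.6 at D3, 28.2 at D5, 53.4 at W1 and 24.9 at W2. In the weaned group it was 24.4 at W3, 30.9 at W6 and 53.1 at W8.

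By FPKM, the 3 highest values of Tfrc thus came from 3 different stages, and all groups overlapped. The bounds of W1 and W8 overlapped each other and lay above those of E18.5, which in turn lay above all others. After median-ratio scaling the order was W8 (78.4), W1 (56.9), W6 (54.3) and then E18.5 (41.0). W1 was 1.89 times D5, and W2 stood at 0.4663 of W1. Between suckling and fetal stomachs the difference was 0.40, and between weaned and suckling it was 0.18, which became -0.13 without W8 and 0.75 after median-ratio scaling. Of 13 erythroid markers, from a cell type with high transferrin receptor, 11 were in the files and 8 reached an FPKM of 1. They summed to an FPKM of 5682 to 12555 in fetal, 478 to 4538 in suckling and 473 to 1109 in weaned stomachs, and their part in the level of Tfrc was not tested. Most alike were Lactb2 (r = 0.82), Pafah2 (0.80), Spp1 (0.80), Dnajb11 (0.80) and Dnajc3 (0.80), and 1 of these 5 remained with Spearman's rho and 2 with median-ratio scaling.

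Because Tfrc brings iron in and Slc40a1 lets it out, their ratio was also computed. In fetal stomachs Tfrc was 0.483 times Slc40a1 at the lowest (E12.5), 1.13 times at the median and 2.40 times at the highest (E17.5). After birth it was 1.505 times Slc40a1 at D1, 1.16 times at D3, 1.96 times at D5, 3.45 times at W1 and 1.93 times at W2. It was 5.31 times Slc40a1 at W3, 15.9 times at W6 and 28.2 times at W8, so all weaned ratios were above all earlier ones. Both genes come from the same library, so this ratio is not altered by a scaling of the whole library.

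Trf (chr9:103208876-103230286), which encodes the iron carrier transferrin of plasma, had one outstanding value. Its FPKM after birth was 186.4 at D1, 26.5 at D3, 19.5 at D5, 24.5 at W1 and 18.8 at W2. In fetal stomachs the lowest was 7.05 (E12.5), the median 8.93 and the highest 22.5 (E18.5), and in the weaned group it was 29.9 at W3, 14.7 at W6 and 8.28 at W8. D1 was 6.23 times the next highest value, W3, and by this ratio Trf ranked 22nd of 9857 genes reaching an FPKM of 10.

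D1 was also the library in which 9 of the 12 hepatocyte markers had their highest level. Afp, which encodes alpha-fetoprotein, was at 185.9 there and at 22.3 at D3, the next highest, and the haptoglobin gene Hp was 8.47 times higher at D1 than elsewhere. All 12 hepatocyte markers reached an FPKM of 1, and their sum was 34.9 to 262 in fetal, 267 to 1632 in suckling and 1535 to 2407 in weaned stomachs. Apoa1 and Ttr accounted for most of the weaned sum, and without both, a choice made after their values were seen, the other 10 summed to 1129 at D1, 138 at W3 and 92.2 at D3. The sum of all 12 was highest at W6 (2407), where Trf was 14.7. Most alike to Trf over the 15 time points were Apoh (r = 0.95), Fga (0.93), Fgg (0.92), Fgb (0.92) and Hp (0.92), all of which encode plasma proteins of the liver. With Spearman's rho 0 of these 5 remained among the first 5, and with median-ratio scaling 1 did. The part of liver RNA in these libraries was not tested.

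Without D1 the suckling minus fetal difference of Trf was 0.99 instead of 1.598 in log2(FPKM + 1), and the weaned minus suckling difference was -0.49 instead of -1.09. After median-ratio scaling with D1 included, the latter was -0.53. By FPKM without W3, the next highest library for both Trf and Alb, it was -1.54. Hamp, which also had its highest value at D1, went from 0.99 to 0.65 for suckling minus fetal, and from 0.05 to 0.39 for weaned minus suckling, which was 0.44 after median-ratio scaling of all libraries. Fetal Trf before E18.5 lay between 7.05 and 13.4. In those libraries Alb was between 1.41 and 5.52 and the 12 hepatocyte markers summed to between 34.9 (E12.5) and 158.7 (E17.5). The source of this Trf was not tested.

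**Figure D3:**
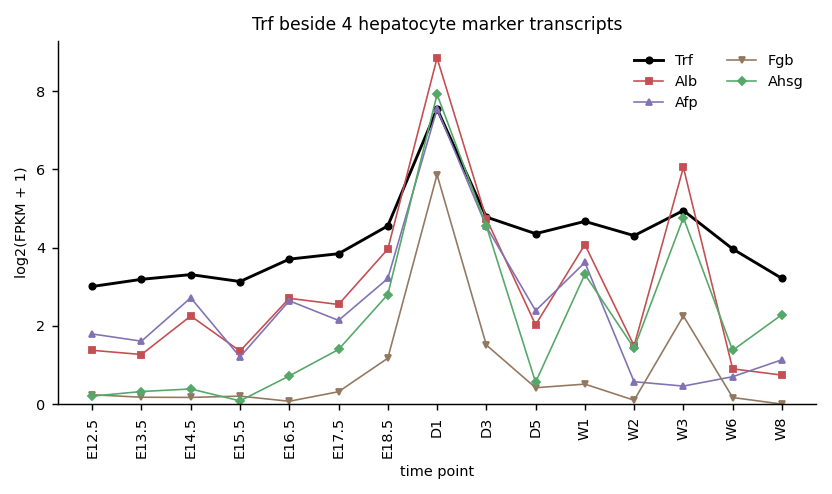
Trf (black circles) and the hepatocyte transcripts Alb, Afp, Fgb and Ahsg as log2(FPKM + 1) at each time point. All 5 have their highest value at D1, where Trf is at an FPKM of 186.4 and Alb at 460.5.

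Slc11a2 (chr15:100387898-100424209), which encodes the divalent metal transporter that moves iron across the apical and endosomal membranes, was the steadiest of the set. Its FPKM in fetal stomachs was 9.26 at the lowest (E18.5), 10.6 at the median and 12.3 at the highest (E13.5). After birth it was 11.1 at D1, 8.62 at D3, 11.5 at D5, 8.57 at W1 and 9.40 at W2, and after weaning 8.28 at W3, 6.18 at W6 and 8.01 at W8. The highest value was 1.99 times the lowest, and the bounds were apart at 1 of 14 steps, above W6.

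The FPKM of Slc11a2 was lower in all 3 weaned libraries than in the suckling ones, with a difference of -0.35, but median-ratio scaling turned this into 0.18, with overlap of the groups. Suckling minus fetal turned likewise, from -0.14 to 0.12. No direction for Slc11a2 is therefore given. Its most alike genes were Fbrs (r = 0.95), Trim41 (0.94), Vps9d1 (0.94), Slc25a37 (0.94) and Pip5k1a (0.94), of which Slc25a37 encodes mitoferrin, the importer of iron into mitochondria. With median-ratio scaling, 0 of these 5 remained among the first 5.

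Cybrd1 (chr2:71117908-71142926), a ferric reductase known from the duodenal brush border, had a peak around weaning. Its FPKM after birth was 10.4 at D1, 16.95 at D3, 23.8 at D5, 36.4 at W1 and 36.2 at W2. It was 56.7 at W3, 27.7 at W6 and 15.1 at W8, and in the fetal group 7.38 at the lowest (E12.5), 11.9 at the median and 19.1 at the highest (E18.5). W3 was 1.56 times W1, the next in order, with bounds apart.

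The bounds of Cybrd1 were apart at 6 of 14 steps in the order of levels, the most of the 7 genes. The groups overlapped, with a difference of 0.79 between suckling and fetal stomachs. Weaned minus suckling was 0.35 by FPKM, -0.12 by FPKM without W3, and 0.92 after median-ratio scaling. Enterocyte markers, 8 of 9 of which reached an FPKM of 1, summed to 10.5 to 162 in fetal, 213 to 341 in suckling and 267 to 389 in weaned stomachs, and sucrase-isomaltase (Sis), which defines mature enterocytes, was listed at 0 in all libraries but E14.5, where it was 0.0195. Most alike to Cybrd1 were Bsg (r = 0.93), Map2k1 (0.91), Stk17b (0.91), Arpc1b (0.90) and Pi16 (0.89), of which 2 remained with Spearman's rho and 3 with median-ratio scaling.

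**Figure D4:**
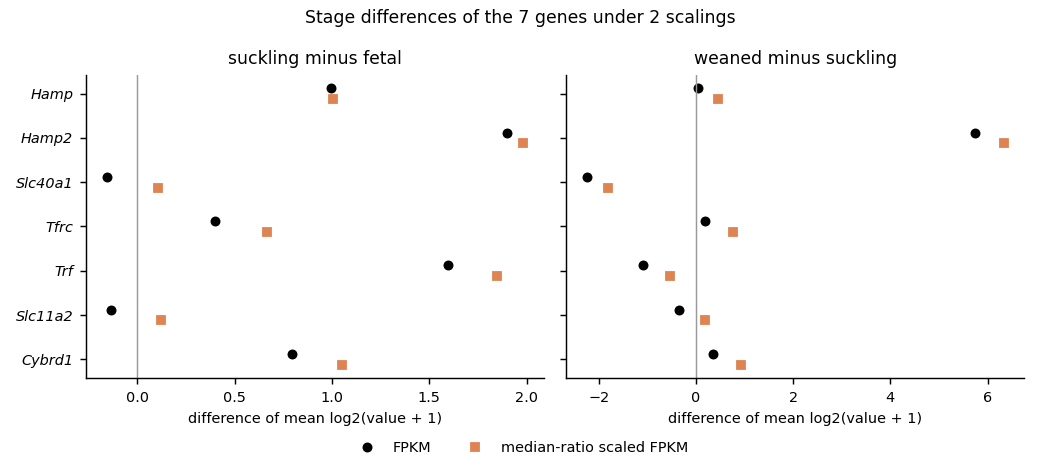
Difference of mean log2(value + 1) between stages (x axis) for each of the 7 genes, by FPKM (black circles) and by median-ratio scaled FPKM (orange squares). Slc40a1 and Slc11a2 change sign with the scaling in the left panel and Slc11a2 in the right panel, while Hamp2 (5.75 and 6.33) and Slc40a1 (-2.24 and -1.81) keep theirs after weaning.

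The other iron genes were taken from lists by role, which were drawn up with earlier results of these data known. Of 79 genes, 78 were in the files and 72 reached an FPKM of 1 and were tested with limma, with Benjamini-Hochberg adjustment over all 16902 genes and an adjusted p under 0.01. In suckling against fetal stomachs, 11 of the 72 (15.3%) rose, against 10.8% of all genes tested, and 13 (18.1%) fell, against 30.6% of all genes. Their median log2 difference was 0.03, and that of all genes was -0.22. After median-ratio scaling the split was 20 higher and 4 lower, beside 17.2% higher and 15% lower over all genes, so the balance of directions depends on the scaling.

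Among the 20 tested genes of hepcidin control, 5 (25%) rose and 4 (20%) fell from fetal to suckling stomachs, beside 10.8% and 30.6% of all genes. After median-ratio scaling 7 (35%) rose and 1 (5%) fell, beside 17.2% and 15% of all genes. The BMP ligand gene Bmp2 had an FPKM of 0.888 at the lowest, 5.397 at the median and 18.3 at the highest in fetal stomachs, and of 13.6 to 23.0 in suckling stomachs, with a log2 difference of 1.64 (SE 0.48, adjusted p = 0.0097). That call was lost without any one of 12 time points, and held without E16.5, E17.5 or E18.5. It was also lost with a pseudocount of 0.1 (adjusted p = 0.0158) and with no filter on low values (adjusted p = 0.0224). Hfe, the gene mutated in hereditary haemochromatosis, was higher in every suckling library (6.00 to 8.24) than in any fetal one (1.81 to 5.23), by 1.10 (SE 0.20, adjusted p = 0.000647). Furin, whose protease cleaves prohepcidin among many substrates, lay between 20.48 and 28.2 in fetal and between 34.0 and 122 in suckling stomachs (1.10, SE 0.25, adjusted p = 0.00236). Smad5, a transducer of BMP signals, fell by 0.88 (SE 0.18, adjusted p = 0.0013).

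Of 9 tested storage and sensing genes, 1 (11.1%) rose and 4 (44.4%) fell, and 2 of 12 uptake genes (16.7%) rose, beside the same 10.8% and 30.6% of all genes. After median-ratio scaling 2 storage and sensing genes rose and 2 fell, and 4 uptake genes rose, beside 17.2% and 15% of all genes. Ireb2, which encodes iron regulatory protein 2, had a lowest, median and highest FPKM of 14.2, 20.9 and 24.5 in fetal stomachs and of 9.71, 10.2 and 12.6 in suckling stomachs, and fell by 0.77 (SE 0.13, adjusted p = 0.000491). The ferritin heavy chain gene Fth1 differed by 0.62 (SE 0.19) with an adjusted p of 0.0121, and the light chain gene Ftl1 by -0.21 (SE 0.11) with an adjusted p of 0.105, so neither passed by FPKM. Fth1 did pass after median-ratio scaling (0.90, adjusted p = 0.00553), with a fixed sum without the 10 highest genes (adjusted p = 0.00398) and with the study's RNA phases as groups (adjusted p = 0.00897). Ferritin transcripts were by far the most abundant of the iron genes named here, with Ftl1 between 1349 and 2615 over all libraries.

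Of the exporters and carriers, 2 of 6 (33.3%) rose and 1 (16.7%) fell by FPKM, beside 10.8% and 30.6% of all genes. After median-ratio scaling 1 (16.7%) rose, beside 17.2% of all genes. Hephaestin (Heph), the ferroxidase that works beside ferroportin, had an FPKM of 1.93 to 9.21 in fetal and of 0.889 to 2.003 in suckling stomachs (log2 difference -1.12, SE 0.29, adjusted p = 0.00437). This call was lost after median-ratio scaling (-0.90, adjusted p = 0.01), with no filter on low values (adjusted p = 0.0101) and without E14.5, W1 or W2. Hemopexin (Hpx), a heme carrier of plasma, was 13.7 at D1 and 1.15 to 2.79 in the other suckling libraries, and its call (1.62, SE 0.47, adjusted p = 0.00886) was lost without any one of 12 time points, D1 included, where the difference was 1.15, and held without W2, W3 or W8. It was also lost after median-ratio scaling (adjusted p = 0.0102), with no filter (adjusted p = 0.0206) and with the study's RNA phases (adjusted p = 0.0245). In the heme group 2 of 13 (15.4%) fell by FPKM, beside 30.6% of all genes, and the other 11 did not pass. After median-ratio scaling 5 (38.5%) rose and 1 (7.69%) fell, beside 17.2% and 15% of all genes. The direction of this group thus depends on the scaling. Those that fell by FPKM include the erythroid enzyme Alas2 (-1.51, SE 0.36, adjusted p = 0.00286), beside erythroid marker sums that were lower after birth. Heme oxygenase 1 (Hmox1) stood at 48.8 at D1 and differed by 0.91 with an adjusted p of 0.0187, and by 0.67 without D1. It passed after median-ratio scaling (1.16, adjusted p = 0.00501) and with the fixed sum (adjusted p = 0.00908). Of 12 mitochondrial genes, 1 (8.33%) rose and 2 (16.7%) fell by FPKM, and 1 (8.33%) rose after median-ratio scaling, beside the same shares of all genes.

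In weaned against suckling stomachs, 4 of the 72 genes (5.56%) rose, against 2.57% of all genes tested, and 14 (19.4%) fell, against 28.9% of all genes. The median log2 difference was -0.29, and that of all genes -0.42. After median-ratio scaling 16 rose and 4 fell, beside 12.8% and 7.77% over all genes.

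Furin rose to an FPKM of 229 at W3, 143 at W6 and 239 at W8 (1.96, SE 0.31, adjusted p = 0.000478). The heme synthesis genes Alas1 (0.54, SE 0.11, adjusted p = 0.00167) and Uros (0.50, SE 0.13, adjusted p = 0.0074) rose, as did Ftl1 (0.53, SE 0.14, adjusted p = 0.00625). Fth1 was at 1402 to 1761 in weaned and 813 to 1290 in suckling stomachs, and did not pass by FPKM (0.56, adjusted p = 0.06) but did after median-ratio scaling (1.15, adjusted p = 0.0068). After median-ratio scaling Alas1 differed by 1.12, Uros by 1.05 and Ftl1 by 1.12. The call of Uros was lost with the fixed sum (adjusted p = 0.021).

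Of the 20 genes of hepcidin control, 1 (5%) rose and 6 (30%) fell after weaning by FPKM, beside 2.57% and 28.9% of all genes, and 3 (15%) rose and 2 (10%) fell after median-ratio scaling, beside 12.8% and 7.77%. Bmp6, which encodes the ligand by which liver endothelium signals iron stores to hepatocytes, was 3.34 at W3, 2.18 at W6 and 2.23 at W8, below all suckling values (5.49 to 7.09), and fell by 1.09 (SE 0.17, adjusted p = 0.000399). Smad5 fell by 1.16 (SE 0.23, adjusted p = 0.00133), but not past the threshold after median-ratio scaling (-0.65, adjusted p = 0.0108) or without W6. The transferrin receptor 2 gene Tfr2, a hepatocyte iron sensor, was at most 1.79 (D1) and did not pass in either comparison (adjusted p = 0.105 and 0.0934).

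Among uptake genes 3 of 12 (25%) fell by FPKM, beside 28.9% of all genes. After median-ratio scaling 1 (8.33%) rose and 2 (16.7%) fell, beside 12.8% and 7.77% of all genes. Slc22a17, which encodes a receptor for lipocalin 2, was 9.10 at W3, 4.43 at W6 and 9.997 at W8 against 18.498 to 37.3 in suckling stomachs (-1.68, SE 0.31, adjusted p = 0.000966). Hmox1 fell by 1.35 (SE 0.37, adjusted p = 0.00901), a call that was lost after median-ratio scaling (adjusted p = 0.09), with no filter (adjusted p = 0.0194), with the study's RNA phases (adjusted p = 0.0174) and without any one of 13 time points, and held without W1 or W3. Heph was 0.167 to 0.347 in weaned stomachs, with a difference of -1.06 that did not pass (adjusted p = 0.0226). It passed with a pseudocount of 0.1 (-2.34, adjusted p = 0.00146) and with the study's RNA phases (-1.12, adjusted p = 0.00697). The 12 mitochondrial genes differed by -0.86 to 0.15 by FPKM and did not pass limma's threshold, beside 2.57% higher and 28.9% lower over all genes. After median-ratio scaling 7 (58.3%) rose, beside 12.8% of all genes.

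**Figure D5:**
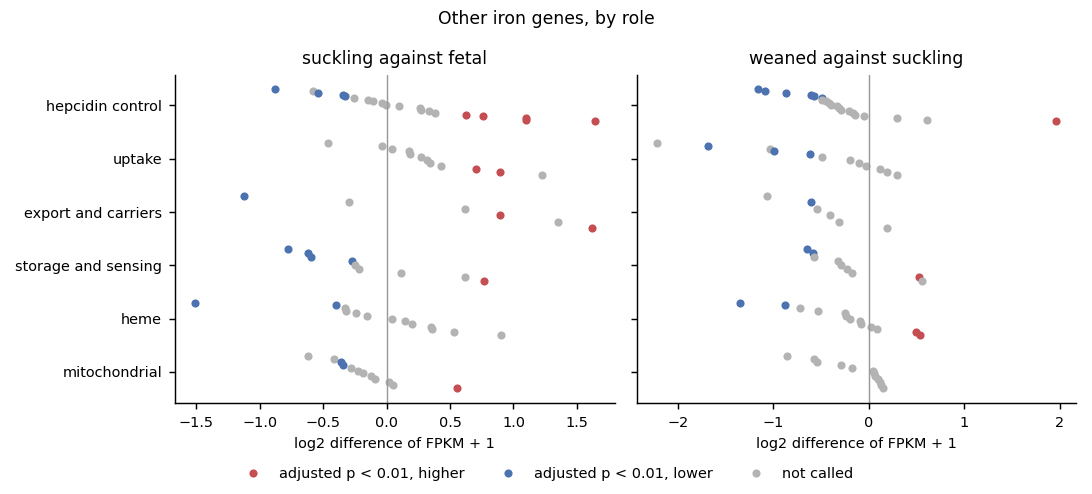
Difference in log2(FPKM + 1) (x axis) of the 72 tested other iron genes, grouped by role, with 1 point per gene and red and blue for genes higher and lower at an adjusted p under 0.01. From fetal to suckling stomachs 11 are red and 13 blue, and from suckling to weaned stomachs 4 are red and 14 blue.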

How the data were processed

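Whole stomachs of C57BL/6 mice were sequenced at 15 time points, and the authors deposited 1 table of FPKM per library, with 2 confidence bounds for each entry. The paper's methods name HISAT2 and StringTie, the submitters' processing notes name Bowtie 0.12.2, FastQC and GRCm38.p2, and the tables have the layout of Cufflinks, so the quantifying tool is uncertain. The methods also name liver tissue as the RNA source, against stomach in the labels and elsewhere in the paper.

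The 7 genes, the gene lists by role and the marker lists were chosen with earlier results of these data known. Groups were set at birth and at weaning (between W2 and W3, the age taken from the paper), and not by the study's RNA phases, which were drawn from these same transcriptomes and serve as an alternative. Symbols reaching an FPKM of 1 were tested on log2(FPKM + 1) with limma 3.58.1 in R 4.3.3 over all 15 libraries, with time points as replicates, so the spread includes change with age. The test was tried on simulated data. Fragments were estimated as the square of 2 times the FPKM over its distance to the upper bound, assuming Poisson bounds. In low entries only 38.2% to 43.6% of these came out whole within 0.02, so they are estimates. For Tfrc the estimate was 947 fragments at an FPKM of 15.2 (E12.5) and 1689 at 53.4 (W1). Fragments thus rose less than FPKM, at similar estimated library sizes of 13.8 and 15.4 in units of 1e6. Bounds of higher entries can therefore be wider than counting error, which makes their fragments too few. Each bound comes from 1 library and holds no spread between animals. Hits of the lists were named by rule, as the 4 largest differences each way among called genes, plus Fth1, Ftl1, Bmp6, Tfr2, Heph and Hmox1. Promoters and coding sequences were aligned with Biopython 1.88. Further steps were run with pandas 2.3.3 and NumPy 2.4.6 in Python 3.11.15. A result on a further gene is not reported here.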

Additional observations from a re-analysis of the deposited data

Results flagged for a closer look

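For the other iron genes named in the report, most of which were named for a large difference between stages, the lowest and highest value within the fetal and the suckling group were compared with the nearest neighbour (Dixon's 95% limit, which chance passes in about 1 of 20 groups). The 7 genes themselves were not examined in this way, because they were chosen on these values, and neither was the weaned group of 3. Of 32 such series, 5 held a value past the limit. Hpx (13.7) and Tfr2 (1.79) stood apart at D1, the library in which most hepatocyte markers had their highest level. Furin stood apart at W2 (122.0), Alas1 at D3 (23.1, below the others) and Uros at E18.5 (9.51, below the others).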

How the results depend on the processing

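No paired analysis was possible because the labels give no replicate numbers and each time point has 1 library. Scaling mattered most. Median-ratio scaling changed the counts of other iron genes from 11 to 20 higher and from 13 to 4 lower in suckling against fetal stomachs, and from 4 to 16 higher and from 14 to 4 lower in weaned against suckling. With a fixed sum without the 10 highest genes the lower counts were 7 and 8, while over all genes they went from 5170 to 3250 and from 4877 to 3186. Ftl1 changed sign between suckling and fetal stomachs under median-ratio scaling, from -0.21 to 0.068 (adjusted p = 0.679). Leaving out 1 time point gave 8 to 13 higher and 8 (without W1) to 17 lower in suckling against fetal stomachs, and 1 to 4 higher and 5 to 18 lower in weaned against suckling. Of these, the higher count was 1 without W6 and 2 without D3 or D5, and the lower count 5 without W6, 8 without D5 and 9 without W8. Over all genes tested, leaving out W6 took the higher count from 435 to 169 and the lower count from 4877 to 1359. Calls were also lost for weaned Ftl1 without D3, D5, W3 or W6, for Alas1 without W6, and for weaned Uros without any one of 10 time points (not E12.5, E17.5, E18.5, W2 or W3). The other settings (pseudocount 0.1, no filter, a limit of 2, first entry of a symbol, the study's phases) kept each count within 1.5 times. The pseudocount of 0.1 moved the suckling minus fetal difference of Hamp2 from 1.90 to 3.23. Among member differences, the sign of weaned minus suckling for Hamp also changed without W1, W2 or W3. It was -0.29 without W1 and the same without W2, as Hamp was listed at 0 in both. The cause of these changes was not tested. Levels near 1 to 5 fragments, as for Hamp and fetal Hamp2, cannot be ordered at this depth.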
